A study of Patiria miniata with 16 samples.

Results

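The genes described here encode the folding machinery of the endoplasmic reticulum (ER) and the apparatus that brings new proteins into it, in Patiria miniata (bat sea star) embryos. A gene was included when the product name in the deposited annotation held calreticulin, calnexin, endoplasmin, endoplasmic reticulum chaperone, protein disulfide-isomerase, hypoxia up-regulated protein, protein transport protein Sec61, signal peptidase complex, translocon-associated, oligosaccharyl, signal recognition particle, derlin or ERO1. This gave 40 of the 27818 genes. Their roles divide them into 11 disulfide isomerases and ERO1 oxidases, 9 Sec61 and translocon-associated (TRAP) subunits, 8 subunits of the signal recognition particle (SRP) and its receptor, 4 signal peptidase subunits, 3 chaperones of the Hsp90 and Hsp70 classes, 2 lectin chaperones, 2 derlins and 1 oligosaccharyltransferase subunit.

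The study sequenced polyA RNA from pools of at least 200 whole wild type embryos raised with or without BAPN, beta-aminopropionitrile, which blocks lysyl oxidases, the enzymes that cross-link collagen. The 16 libraries form 8 groups of 2. The treated groups are BAPN from hatched blastula to day 2 (day 2 BAPN embryos), from mid gastrula to day 3 (day 3 BAPN embryos), from hatched blastula to day 4 (blastula start) and from mid gastrula to day 4 (gastrula start), and recovery, in which BAPN was given from hatched blastula to day 2 and embryos were taken at day 4 after removal. Untreated controls were taken at day 2, day 3 and day 4. Each treated group has 1 library at 1.2 mM and 1 at 0.8 mM, given in that order below except for recovery, where the 0.8 mM library comes first. The gastrula start and recovery have no control of their own in the labels and were set against the day 4 controls, while the labels tie each control library to 1 treated library of the other 3 windows. Thus these comparisons and that of the blastula start at day 4 share their controls. Whether a group's libraries had separate cultures is not stated, so p-values reflect library-to-library spread, which may be technical and in treated groups includes the dose.

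Proteins bound for secretion or for membranes enter the ER while they are made. SRP binds the signal sequence and brings the ribosome to the SRP receptor, the Sec61 channel with the TRAP complex takes the chain in, and signal peptidase and oligosaccharyltransferase cut and glycosylate it. In the lumen, BiP, endoplasmin, calreticulin, calnexin and the disulfide isomerases fold the protein, and derlins take part in the removal of chains that fail to fold. In animals, many of the lumenal chaperones are targets of the unfolded protein response, and collagen is a large client of this machinery.

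The annotation of the files bears out the names by domain, except for SRP9 (LOC119721179), the 1 gene of the 40 with no domain listed. A thioredoxin domain (PF00085) was listed for 9 of the 40 genes, against 24 of all 27818 genes, and both genes of the whole table with a calreticulin family domain were among the 40. The gene named calnexin-like matched calmegin best in Swiss-Prot, a calnexin relative known from mammalian testis. Most names carry the ending "-like", for a gene named by its similarity to another. Several members share a product name (2 PDI-like, 3 PDIA5-like, 2 TRAP gamma-like, 2 TRAP delta-like and 2 ERO1-like genes). How alike their sequences are was not examined. How reads that match more than 1 gene were counted is not given in the sources used here, so the values of each of these genes are uncertain. The 3 PDIA5-like genes lie on the same scaffold and strand. The genes of the SRP receptor alpha subunit (LOC119733142) and of hypoxia up-regulated protein 1 (LOC119732946) are 2966 bases apart on the same strand.

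Total counts were 9945801 to 14383817 per library. Of the 40 genes, 39 passed the filter on low counts. The other one, the PDIA5-like gene LOC119729835, had 8 counts in all and none in 13 of 16 libraries. The PDIA5-like gene LOC119729825 and the TRAP delta-like gene LOC119740884 passed with 243 and 224 counts over all libraries, and no result below rests on them. Levels are in CPM, each library's counts scaled by its size and TMM factor, and changes are log2 changes with their standard error (SE). A gene was called at an adjusted p under 0.05 in edgeR's quasi-likelihood test, adjusted by Benjamini-Hochberg over all 17519 genes tested.

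Together the 40 genes took 0.494% and 0.536% of all counts in day 2 BAPN embryos, against 1.30% and 1.30% in day 2 controls, and 0.542% and 0.559% in day 3 BAPN embryos, against 1.13% and 1.14% in day 3 controls. At day 4 they took 0.537% and 0.547% with the blastula start, 0.453% and 0.490% with the gastrula start and 1.02% and 1.06% after recovery, against 0.886% and 0.976% in controls. All 8 libraries kept in BAPN were below all 6 control libraries, and both recovery libraries were above both day 4 controls. The summed share with BAPN was 0.396 ± 0.023 of the control mean at day 2, 0.485 ± 0.011 at day 3, 0.582 ± 0.008 at day 4 with the blastula start and 0.506 ± 0.028 with the gastrula start, and 1.12 ± 0.027 after recovery (SD over the 2 treated libraries). These libraries are whole embryos, so fewer cells that express the genes and less RNA per cell cannot be told apart.

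**Figure D1:**
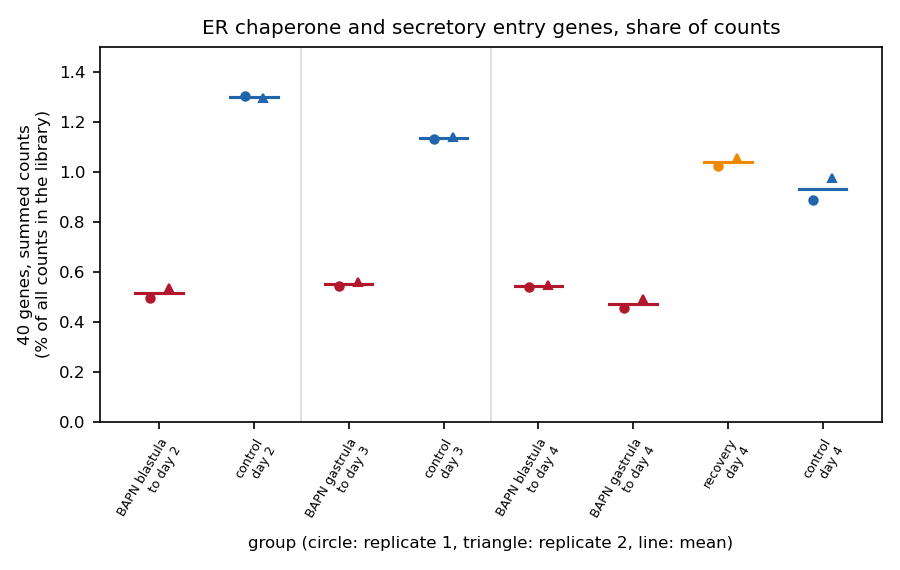
Share of all counts taken by the 40 genes (y axis, percent of the library's counts) in each library, by group (x axis); points are libraries and lines are group means. The 8 libraries kept in BAPN lie between 0.453% and 0.559%, below all others, and the recovery libraries lie at 1.02% and 1.06%.

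Averaged over the 3 windows that have controls of their own (day 2, day 3 and the blastula start at day 4), 22 of the 39 tested genes fell and 7 rose. Of all genes tested, 30.1% fell and 28.1% rose. The median log2 change was -0.48 over the 39 genes and -0.07 over all genes. Both lectin chaperones fell, as did all 3 chaperones of the Hsp90 and Hsp70 classes, 7 of 10 disulfide isomerases and oxidases, 5 of 9 Sec61 and TRAP subunits, 2 of 4 signal peptidase subunits and the oligosaccharyltransferase subunit. SRP and its receptor went differently, with 3 of 8 genes higher and 1 lower. Of the 39 genes, 18 were below both controls of their day in all 6 treated libraries, a pattern that 17.3% of all genes tested showed, and 4 were above both in all 6, against 18% of all genes.

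**Figure D2:**
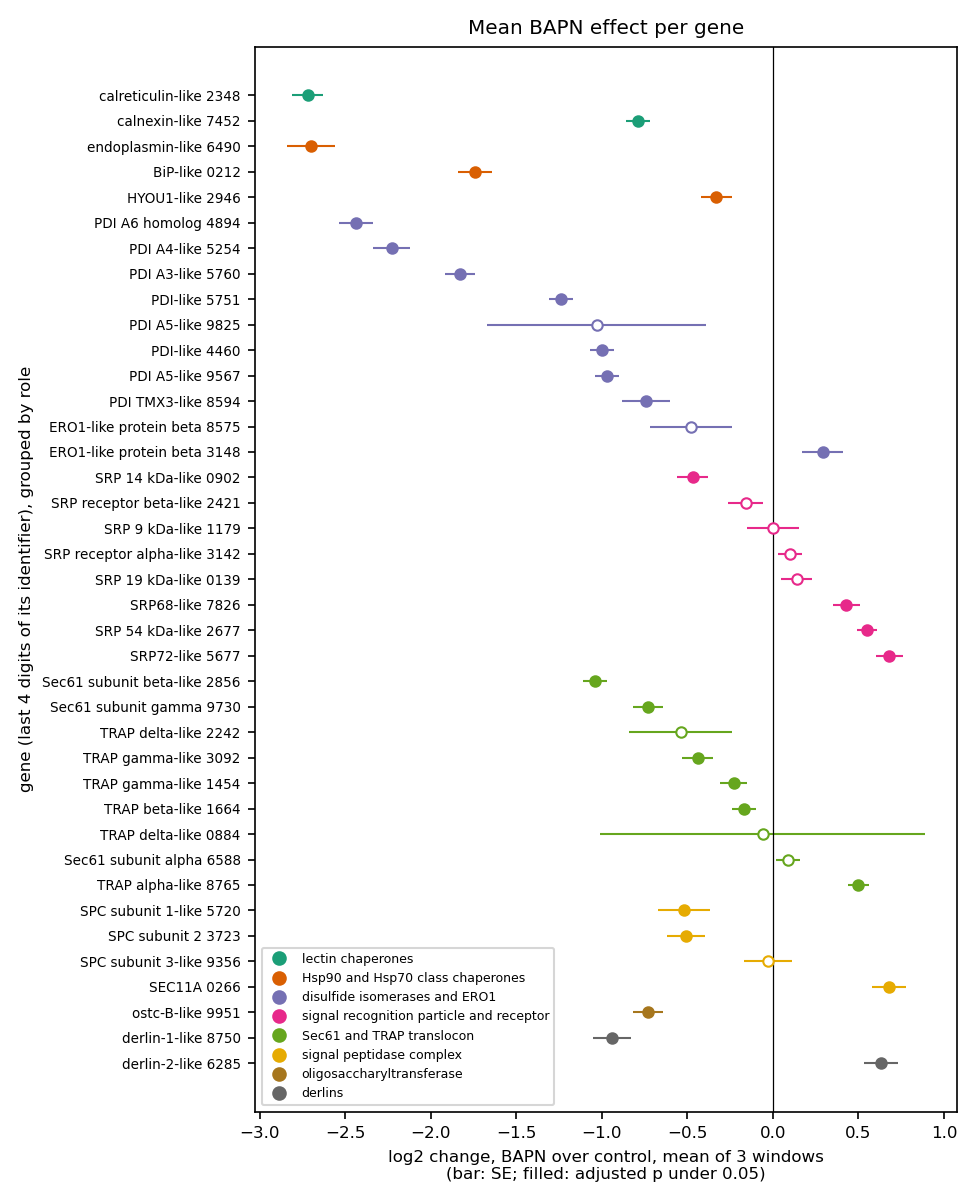
Log2 change with BAPN averaged over 3 windows (x axis, bars are SE) for each of the 39 tested genes (y axis, coloured by role); filled points passed the test. The lumenal chaperones and disulfide isomerases reach -2.72, and the highest value is 0.68.

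Calreticulin (LOC119722348; NW_024037053.1, 1414488 to 1425090, plus strand, Pmin_3.0), the soluble lectin chaperone that binds calcium and newly glycosylated proteins, had the lowest mean effect of the 39 genes. The change was lower for endoplasmin at day 2 and with the gastrula start at day 4, and for PDIA6 and PDIA4 at day 2. Calreticulin had 250 and 310.1 CPM in day 2 BAPN embryos, against 1940 and 1839 CPM in day 2 controls, and 218 and 256 CPM in day 3 BAPN embryos, against 1642 and 1607 CPM in day 3 controls. At day 4, calreticulin had 235 and 171 CPM with the blastula start, 141 and 169.5 CPM with the gastrula start and 1305 and 1511 CPM after recovery, against 1159 and 1339 CPM in controls. The 8 libraries kept in BAPN were all below the other 8, and the recovery libraries lay around the level of their controls. The mean change was -2.72 ± 0.09 (SE, adjusted p = 2e-16), 0.152 of the control level. The change was called in each window, from -2.62 with the blastula start at day 4 to -3.01 with the gastrula start. Per kilobase, calreticulin ranked first of the 40 genes in the controls of each day, with group means of 1072 ± 40.2, 922 ± 13.98 and 709 ± 72.4 RPKM (CPM divided by the gene length in kilobases) at days 2, 3 and 4 (SD, n = 2 each), and in recovered embryos with 799 ± 82.8 RPKM. In the 4 BAPN groups it ranked between 4 and 8, and Sec61 alpha ranked first with 238 to 305 RPKM. Calreticulin made up 3.12% to 4.86% of the 40 genes' counts in those groups and 14.8% after recovery, against 13.6% to 16.3% in controls.

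Calnexin (LOC119727452), the membrane-bound relative of calreticulin, fell less. Calnexin had 609 and 695 CPM in day 2 BAPN embryos, against 1131 and 1139 CPM in day 2 controls, and 456 and 522 CPM in day 3 BAPN embryos, against 871 and 866 CPM in day 3 controls. At day 4, calnexin had 286 and 352 CPM with the blastula start, 350.3 and 383 CPM with the gastrula start and 800.1 and 802 CPM after recovery, against 537 and 523 CPM in controls. Treated and control libraries of a day did not overlap, and the controls themselves declined with age. The mean change was -0.79 ± 0.07 (SE, adjusted p = 2.1e-09), with a call in every window.

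Endoplasmin (LOC119726490; NW_024037058.1, 10909847 to 10930507, plus strand, Pmin_3.0) is the Hsp90 of the ER, with clients among secreted and cell surface proteins. Endoplasmin had 59.98 and 92.8 CPM in day 2 BAPN embryos, against 873 and 756 CPM in day 2 controls, and 106 and 137 CPM in day 3 BAPN embryos, against 646 and 674 CPM in day 3 controls. At day 4, endoplasmin had 146 and 108 CPM with the blastula start, 55.98 and 82.8 CPM with the gastrula start and 502 and 569.8 CPM after recovery, against 518 and 683 CPM in controls. The highest library kept in BAPN, at 146 CPM, was far below the lowest control, at 518 CPM. Its mean change was -2.70 ± 0.14 (SE, adjusted p = 1.2e-10), and the fall in day 2 BAPN embryos, -3.42 ± 0.25, was the steepest of any of the 39 genes in any window.

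BiP (LOC119720212; NW_024037076.1, 13023289 to 13033465, plus strand, Pmin_3.0) is the Hsp70 of the ER, which pulls chains in, holds unfolded proteins and keeps the stress sensors inactive. BiP had 182 and 238 CPM in day 2 BAPN embryos, against 1334 and 1227 CPM in day 2 controls, and 235.6 and 297 CPM in day 3 BAPN embryos, against 986 and 1050 CPM in day 3 controls. At day 4, BiP had 761 and 559 CPM with the blastula start, 269.9 and 255 CPM with the gastrula start and 673 and 817 CPM after recovery, against 864 and 1224 CPM in controls. No library kept in BAPN reached the controls of its day, but the blastula start at day 4 came closest. The mean change was -1.74 ± 0.10 (SE, adjusted p = 2.8e-11). By window, BiP fell by 2.61 on the log2 scale at day 2, by 1.93 at day 3 and by 1.99 with the gastrula start at day 4, but by 0.66 ± 0.18 with the blastula start at day 4 (adjusted p = 0.0041). That last call was lost without the 0.8 mM library of the blastula start (-0.45) and without the second day 4 control (-0.38). The third gene of the class, hypoxia up-regulated protein 1 (LOC119732946), a large Hsp70 relative that aids BiP, had a mean change of -0.33 ± 0.09 (SE, adjusted p = 0.0027) and was called in a single window, at day 2 (-0.66 ± 0.15).

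**Figure D3:**
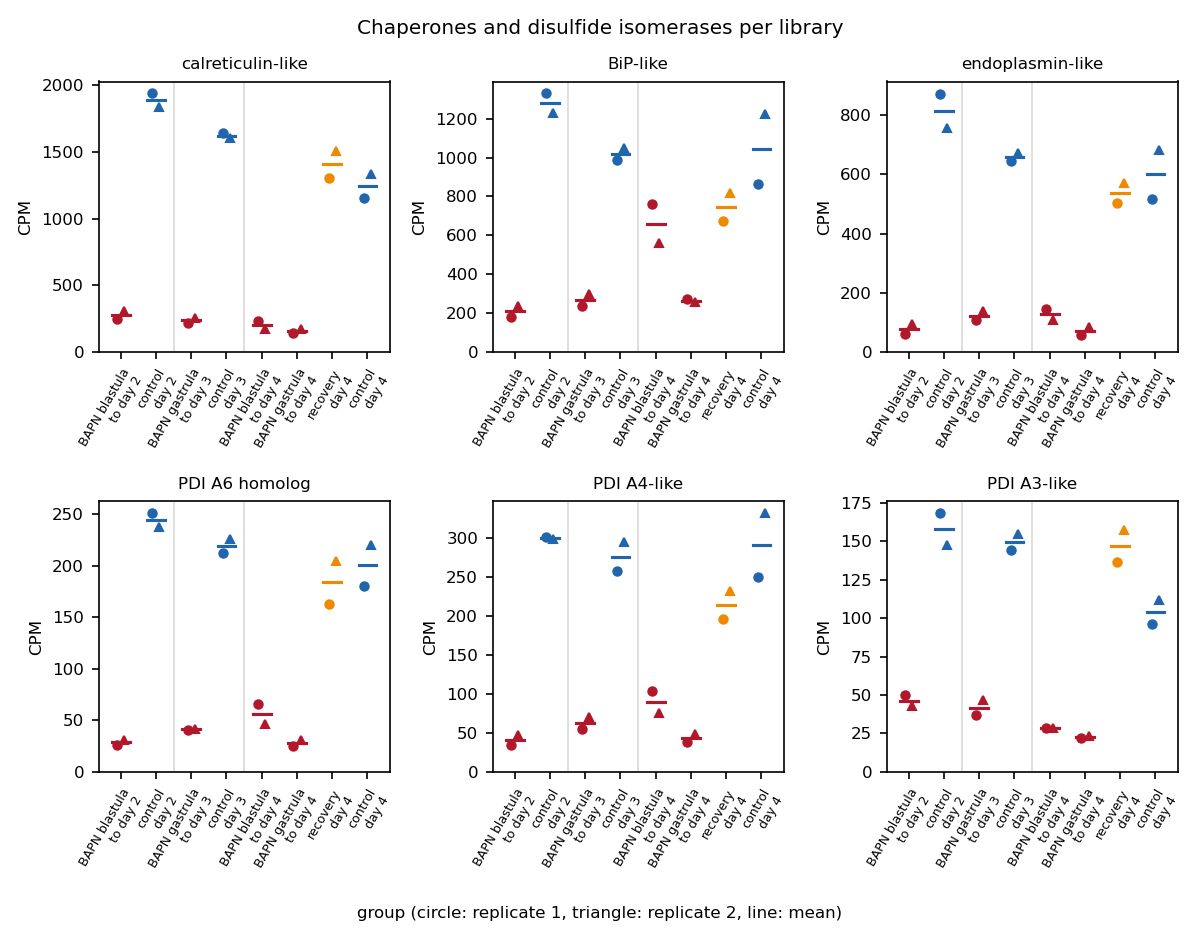
CPM (y axis) of calreticulin, BiP, endoplasmin, PDIA6, PDIA4 and PDIA3 in each library by group (x axis); points are libraries and lines are group means. Libraries kept in BAPN lie below the controls of their day in all 6 panels, and BiP with the blastula start at day 4 (761 and 559 CPM) is nearest to its controls (864 and 1224 CPM).

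Among the disulfide isomerases, which form and rearrange disulfide bonds, 7 genes fell and none of the isomerases rose. PDIA6 (LOC119724894), which works beside BiP, had the largest fall. PDIA6 had 26.3 and 31.2 CPM in day 2 BAPN embryos, against 251 and 238 CPM in day 2 controls, and 41.02 and 41.8 CPM in day 3 BAPN embryos, against 213 and 226 CPM in day 3 controls. At day 4, PDIA6 had 65.98 and 46.8 CPM with the blastula start, 25.04 and 31.3 CPM with the gastrula start and 163 and 205 CPM after recovery, against 181 and 220.2 CPM in controls. Its mean change was -2.44 ± 0.10 (SE, adjusted p = 3.8e-15), and no library kept in BAPN exceeded 66.0 CPM.

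PDIA4 (LOC119745254), an isomerase found in complexes with BiP and endoplasmin, followed a like order. PDIA4 had 34.6 and 47.4 CPM in day 2 BAPN embryos, against 301 and 299 CPM in day 2 controls, and 55.5 and 70.8 CPM in day 3 BAPN embryos, against 258 and 295 CPM in day 3 controls. At day 4, PDIA4 had 104 and 75.6 CPM with the blastula start, 38.3 and 49.2 CPM with the gastrula start and 196 and 232 CPM after recovery, against 250 and 332 CPM in controls. Both recovery libraries were below both day 4 controls, but this difference, -0.44 ± 0.18, did not pass the test (adjusted p = 0.12). The mean change with BAPN was -2.23 ± 0.11 (SE, adjusted p = 1.2e-12).

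PDIA3 (LOC119745760), the partner of calreticulin and calnexin for glycoproteins, also fell. PDIA3 had 49.7 and 43.02 CPM in day 2 BAPN embryos, against 168 and 148 CPM in day 2 controls, and 36.7 and 46.4 CPM in day 3 BAPN embryos, against 144 and 155 CPM in day 3 controls. At day 4, PDIA3 had 28.6 and 28.5 CPM with the blastula start, 21.9 and 23.6 CPM with the gastrula start and 137 and 157 CPM after recovery, against 95.8 and 112 CPM in controls. The 2 gastrula start libraries were the lowest of the 16, and both recovery libraries were above both day 4 controls. The mean change was -1.83 ± 0.09 (SE, adjusted p = 7e-14).

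The PDI-like gene LOC119725751 had the highest mean level per kilobase of its role, 201 RPKM over all libraries. PDI is also the beta subunit of prolyl 4-hydroxylase, the collagen-modifying enzyme. This gene had 308 and 372 CPM in day 2 BAPN embryos, against 998 and 911 CPM in day 2 controls, and 460.1 and 504 CPM in day 3 BAPN embryos, against 1067 and 1049 CPM in day 3 controls. At day 4, it had 381 and 451 CPM with the blastula start, 388 and 437 CPM with the gastrula start and 961 and 1027 CPM after recovery, against 871 and 896 CPM in controls. The 8 libraries kept in BAPN, at most 505 CPM, were below the other 8, at least 871 CPM. The mean change was -1.24 ± 0.07 (SE, adjusted p = 1.7e-12), and that of the second PDI-like gene, LOC119734460, was -1.0 ± 0.07 (SE, adjusted p = 3.3e-11).

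PDIA5 LOC119729567 had a mean change of -0.97 ± 0.07 and TMX3 (LOC119738594), a membrane-bound isomerase, one of -0.74 ± 0.14. ERO1, which passes electrons from the isomerases to oxygen, did not follow them. The ERO1-like gene LOC119743148 was the sole called riser of the role, with 26.7 and 34.7 CPM in day 2 BAPN embryos and 27.2 and 20.1 CPM in day 2 controls. Its day 3 BAPN libraries had 27.8 and 26.8 CPM, against 25.9 and 24.4 CPM in day 3 controls, and its blastula start libraries 29.8 and 25.96 CPM, against 20.1 and 22.98 CPM in day 4 controls. Treated and control libraries overlapped at day 2, and the mean change of 0.29 ± 0.12 (SE, adjusted p = 0.047) lost its call in 18 of 24 alternatives, with 0.06 when libraries were scaled by total counts. The other ERO1-like gene, LOC119728575, had -0.48 ± 0.24 (adjusted p = 0.098).

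SRP and its receptor act before any of these. Averaged over the 3 windows, SRP72, SRP68 and SRP54 rose and SRP14 fell, while SRP19, SRP9 and both receptor subunits did not pass the test. SRP72 (LOC119735677) and SRP68, which form a dimer on the SRP RNA, changed with the day. SRP72 had 129.9 and 136 CPM in day 2 BAPN embryos, against 130.5 and 159 CPM in day 2 controls, and 138 and 137 CPM in day 3 BAPN embryos, against 88.9 and 85.02 CPM in day 3 controls. At day 4, SRP72 had 138 and 148 CPM with the blastula start, 122 and 154 CPM with the gastrula start and 94.99 and 87.7 CPM after recovery, against 53.2 and 46.8 CPM in controls. In controls SRP72 was lower on each later day, and in BAPN it stayed between 122 and 154 CPM in all 8 libraries. Its mean change was 0.68 ± 0.08 (SE, adjusted p = 1.4e-07), and the window values were -0.12 at day 2, 0.66 at day 3, 1.51 with the blastula start at day 4 and 1.46 with the gastrula start, of which the day 2 value was not called (adjusted p = 0.52).

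SRP54 (LOC119742677), the subunit that binds the signal sequence and GTP, had the highest mean level per kilobase of the role, 61.4 RPKM. SRP54 had 140.5 and 147 CPM in day 2 BAPN embryos, against 132 and 136 CPM in day 2 controls, and 122 and 120.5 CPM in day 3 BAPN embryos, against 92.5 and 88.5 CPM in day 3 controls. At day 4, SRP54 had 160 and 155 CPM with the blastula start, 157 and 149 CPM with the gastrula start and 90.8 and 90.9 CPM after recovery, against 72.6 and 71.9 CPM in controls. The treated libraries were above the controls of their day in every window, narrowly at day 2. Its mean change was 0.55 ± 0.06 (SE, adjusted p = 1.7e-07). SRP68 (LOC119737826) had a mean change of 0.43 ± 0.08 (SE, adjusted p = 7.5e-05), with 88.0 to 92.0 CPM with the blastula start at day 4 and 39.3 to 41.2 CPM in day 4 controls.

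SRP14 (LOC119740902), part of the SRP domain that pauses translation, went the other way. SRP14 had 51.97 and 49.8 CPM in day 2 BAPN embryos, against 71.7 and 78.2 CPM in day 2 controls, and 34.9 and 37.8 CPM in day 3 BAPN embryos, against 49.5 and 57.97 CPM in day 3 controls. At day 4, SRP14 had 31.6 and 33.9 CPM with the blastula start, 27.9 and 26.7 CPM with the gastrula start and 56.9 and 55.1 CPM after recovery, against 39.4 and 40.5 CPM in controls. Libraries kept in BAPN were below the controls of their day, and recovery libraries above them. Over the 3 windows the mean change was -0.47 ± 0.09 (SE, adjusted p = 8.3e-05). Its partner SRP9 (LOC119721179) had a mean change of 0.00 ± 0.15, with a call lower at day 3 (-0.73) and higher with the blastula start at day 4 (0.89). The day 3 call was lost in 9 of 24 alternatives, among them the removal of any 1 of the 4 libraries compared, and the day 4 call without the second day 4 control (0.82).

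**Figure D4:**
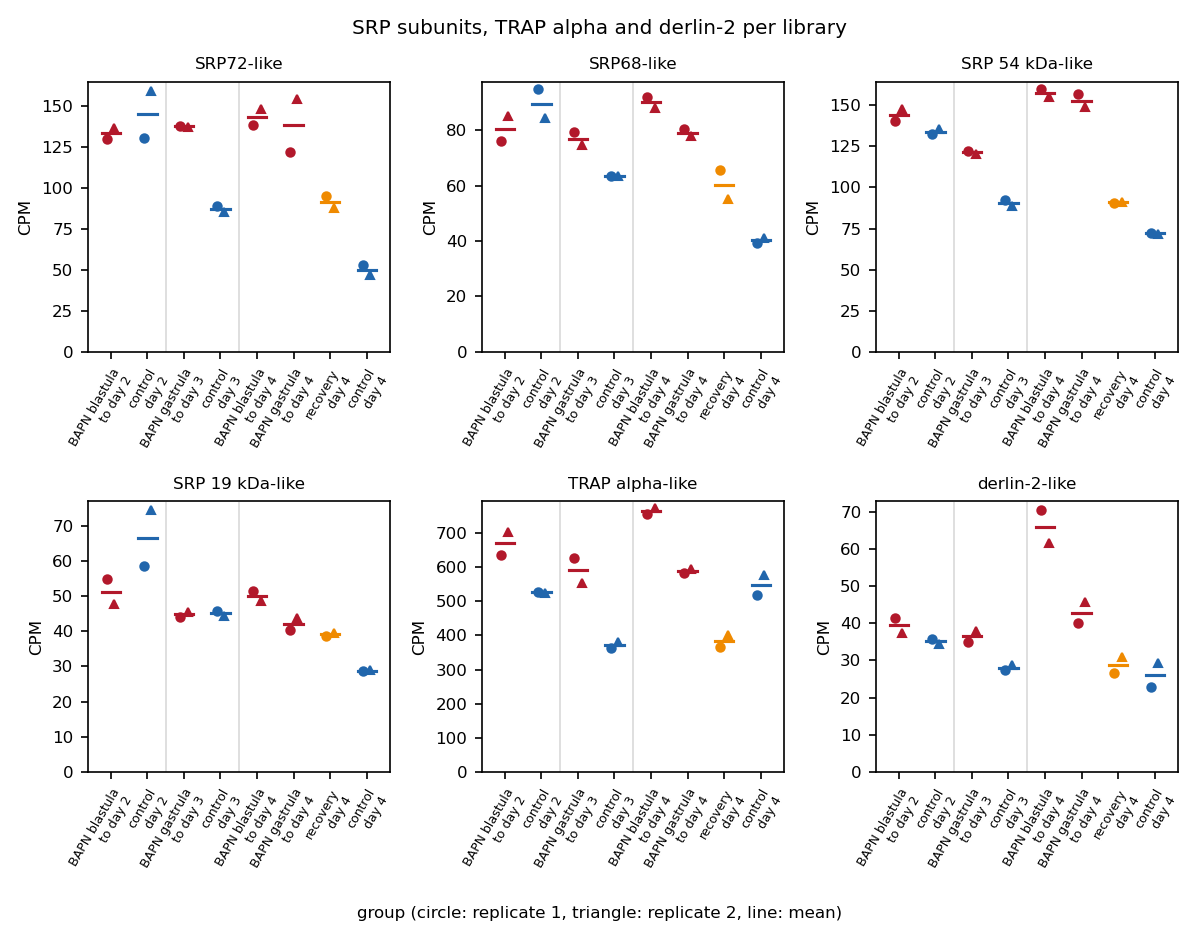
CPM (y axis) of SRP72, SRP68, SRP54, SRP19, TRAP alpha and derlin-2 in each library by group (x axis); points are libraries and lines are group means. In day 4 controls the SRP genes are at their lowest (SRP72 at 53.2 and 46.8 CPM), and libraries kept in BAPN at day 4 lie above them.

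Sec61 alpha (LOC119726588; NW_024037058.1, 13518588 to 13534786, plus strand, Pmin_3.0), the pore of the channel, had the highest mean level per kilobase of its role, 277 RPKM, and did not pass the test in the mean effect, at 0.09 ± 0.07 (SE, adjusted p = 0.26). Sec61 alpha had 838 and 969 CPM in day 2 BAPN embryos, against 1044 and 1102 CPM in day 2 controls, and 847 and 803 CPM in day 3 BAPN embryos, against 726 and 725 CPM in day 3 controls. At day 4, Sec61 alpha had 733 and 947 CPM with the blastula start, 699.9 and 707 CPM with the gastrula start and 818 and 852 CPM after recovery, against 659 and 663 CPM in controls. Its treated libraries were lower than controls at day 2 and higher at day 3 and with the blastula start at day 4. The blastula start value of 0.35 ± 0.12 (SE, adjusted p = 0.02) was called, but lost the call in 9 of 24 alternatives, among them scaling by total counts (0.14) and the fit without the 0.8 mM library of that group (0.15).

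The 2 small subunits of the channel fell. Sec61 beta (LOC119722856) had the larger change. Sec61 beta had 100 and 114 CPM in day 2 BAPN embryos, against 245 and 262 CPM in day 2 controls, and 79.5 and 66.3 CPM in day 3 BAPN embryos, against 178 and 187 CPM in day 3 controls. At day 4, Sec61 beta had 85.96 and 89.6 CPM with the blastula start, 73.2 and 61.05 CPM with the gastrula start and 192 and 208 CPM after recovery, against 126 and 132 CPM in controls. No treated library reached the controls of its day, and the recovery libraries were above the day 4 controls. Over the 3 windows the mean change was -1.04 ± 0.07 (SE, adjusted p = 6.7e-11), against -0.73 ± 0.09 (SE, adjusted p = 2.5e-07) for Sec61 gamma (LOC119729730).

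The TRAP complex, which sits beside Sec61 and aids some signal sequences, was split. TRAP alpha (LOC119738765) rose. TRAP alpha had 634 and 704 CPM in day 2 BAPN embryos, against 528 and 524 CPM in day 2 controls, and 627 and 553 CPM in day 3 BAPN embryos, against 362 and 379.5 CPM in day 3 controls. At day 4, TRAP alpha had 755 and 772 CPM with the blastula start, 582 and 594 CPM with the gastrula start and 367 and 400.2 CPM after recovery, against 517 and 578 CPM in controls. Blastula start libraries were above their controls and recovery libraries below them. Over the 3 windows the mean change was 0.50 ± 0.06 (SE, adjusted p = 7.1e-07), and the day 2 call (0.35) was lost in 8 of 24 alternatives, with 0.10 under total counts. Both TRAP gamma-like genes fell in the mean effect, LOC119743092 with -0.44 ± 0.09 and LOC119721454 with -0.23 ± 0.08, and TRAP beta (LOC119741664) with -0.17 ± 0.07. The TRAP beta call was lost in 9 of 24 alternatives, and that of LOC119721454 without the 1.2 mM library of the blastula start (-0.16). The TRAP delta-like gene LOC119732242 varied widely within groups, with 223 and 85.8 CPM after recovery and 120.2 and 234 CPM in day 4 controls, and was called in no comparison.

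In the signal peptidase complex, the catalytic subunit SEC11A (LOC119720266) rose. SEC11A had 64.6 and 74 CPM in day 2 BAPN embryos, against 57.05 and 45.3 CPM in day 2 controls, and 72.7 and 81.5 CPM in day 3 BAPN embryos, against 46.9 and 42.1 CPM in day 3 controls. At day 4, SEC11A had 53.6 and 81.7 CPM with the blastula start, 60.5 and 66.8 CPM with the gastrula start and 51.3 and 46.7 CPM after recovery, against 38.8 and 37.9 CPM in controls. Every treated library was above the controls of its day, and the mean change was 0.68 ± 0.10 (SE, adjusted p = 7.3e-06). The accessory subunits SPCS2 (LOC119723723) and SPCS1 (LOC119745720) fell, with -0.51 ± 0.11 and -0.52 ± 0.15, and SPCS3 (LOC119729356) had -0.03 ± 0.14 (adjusted p = 0.89).

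The oligosaccharyltransferase subunit OSTC (LOC119729951), which links this enzyme to the channel, fell. OSTC had 80.4 and 99.1 CPM in day 2 BAPN embryos, against 148 and 172 CPM in day 2 controls, and 69.4 and 71.8 CPM in day 3 BAPN embryos, against 116 and 117 CPM in day 3 controls. At day 4, OSTC had 66.6 and 77.3 CPM with the blastula start, 64.9 and 47.8 CPM with the gastrula start and 124 and 134 CPM after recovery, against 108 and 115 CPM in controls. Groups of the same day did not overlap for libraries kept in BAPN, and the mean change was -0.73 ± 0.09 (SE, adjusted p = 2.3e-07). Another 5 subunits carry a product name that the rule does not match, and all 5 fell in the mean effect, from -0.44 ± 0.07 for STT3A (LOC119725278) to -1.29 ± 0.10 for DAD1 (LOC119744517).

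The derlins went opposite ways. Derlin-1 (LOC119738750) had the higher mean level per kilobase, 18.1 RPKM. Derlin-1 had 24.8 and 25.7 CPM in day 2 BAPN embryos, against 61.4 and 85.5 CPM in day 2 controls, and 19.9 and 25.4 CPM in day 3 BAPN embryos, against 45.8 and 47.7 CPM in day 3 controls. At day 4, derlin-1 had 27.9 and 30.5 CPM with the blastula start, 29.8 and 22.99 CPM with the gastrula start and 47.5 and 47.9 CPM after recovery, against 37.2 and 30.9 CPM in controls. Treated libraries were far below controls at day 2 and just below them at day 4, and the mean change was -0.94 ± 0.11 (SE, adjusted p = 2.9e-07). Derlin-2 (LOC119726285) rose. Derlin-2 had 41.5 and 37.4 CPM in day 2 BAPN embryos, against 35.9 and 34.4 CPM in day 2 controls, and 34.99 and 37.9 CPM in day 3 BAPN embryos, against 27.3 and 28.6 CPM in day 3 controls. At day 4, derlin-2 had 70.3 and 61.6 CPM with the blastula start, 39.9 and 45.6 CPM with the gastrula start and 26.6 and 30.8 CPM after recovery, against 22.9 and 29.3 CPM in controls. The 2 blastula start libraries at day 4 were the highest of the 16, and the mean change was 0.63 ± 0.10 (SE, adjusted p = 1.5e-05).

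Window by window, the lower genes outnumbered the higher ones each time. In day 2 BAPN embryos 20 of 39 genes fell and 1 rose, against 19.7% and 21.8% of all genes. In day 3 BAPN embryos 18 fell and 4 rose, against 15.1% and 17.1%. With the blastula start at day 4, 16 fell and 9 rose, against 27.3% and 24.4%, and with the gastrula start 18 fell and 6 rose, against 24.2% and 21.9%. Medians were -0.58, -0.56, -0.29 and -0.53, against -0.01, -0.03, -0.10 and -0.08 over all genes. With scaling by total counts in place of TMM the median of all genes in the mean effect moved to -0.29, that of the 39 genes to -0.70, and 25 fell and 6 rose. In all 4 windows 13 of the 39 genes were called lower, 33.3% of them against 8.25% of all genes, and 0 were called higher in all 4, against 11.2% of all genes. The windows that end at day 4 share their controls. The 13 are calreticulin, calnexin, BiP, endoplasmin, PDIA3, PDIA4, PDIA6, PDIA5 LOC119729567, both PDI-like genes, Sec61 beta, Sec61 gamma and OSTC.

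**Figure D5:**
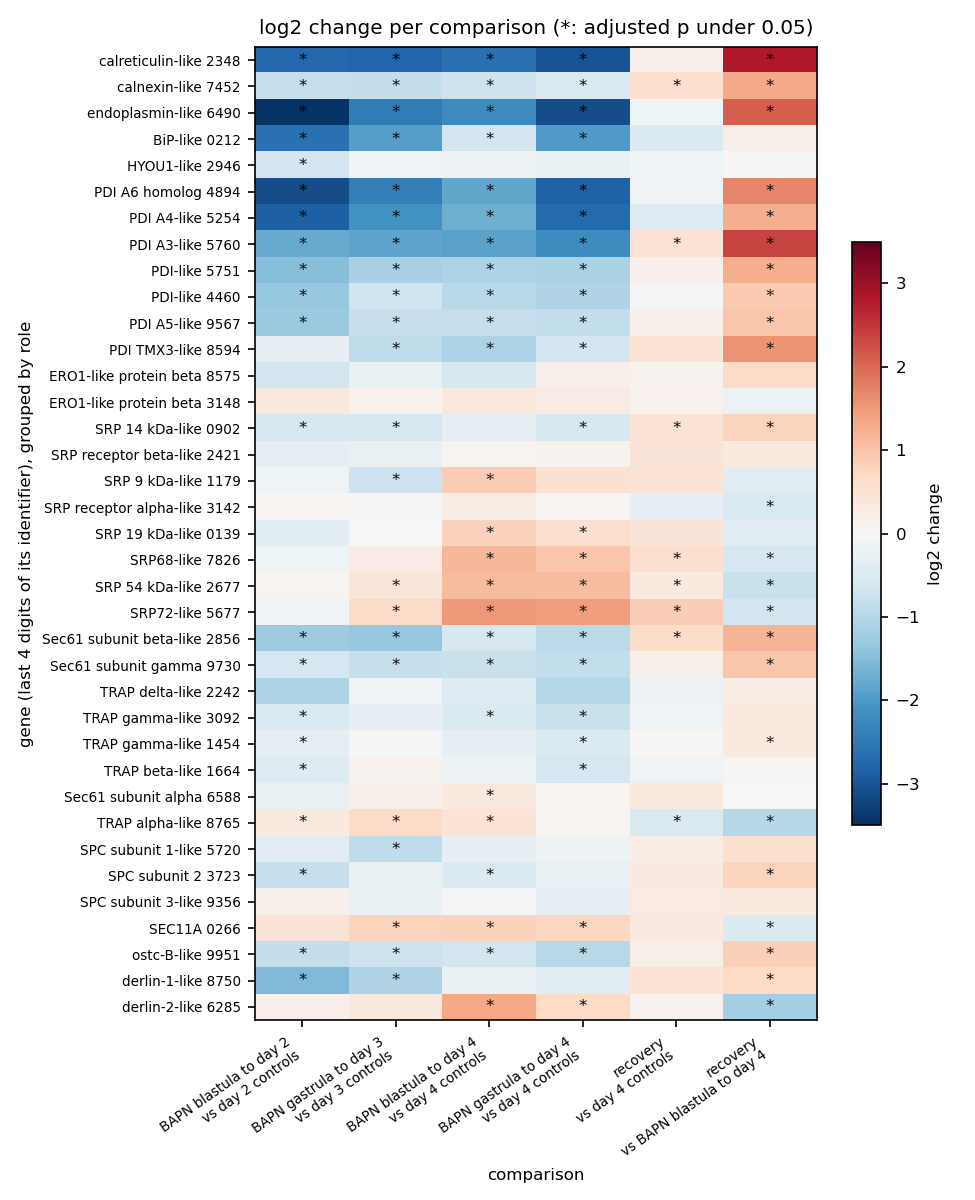
Log2 change (colour) of 37 genes (rows, by role) in 6 comparisons (columns), with an asterisk where the adjusted p was under 0.05; the 2 genes with the fewest counts are left out. The first 4 columns are blue for calreticulin, endoplasmin, BiP and PDIA3 to PDIA6 (down to -3.42), SRP72 reaches 1.51 with the blastula start at day 4, and recovery against the blastula start runs the other way for most of these genes.

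The difference between the blastula start effects at day 4 and at day 2 was tested itself, each against controls of its own day. It was higher for 14 of the 39 genes and lower for 0, against 12.1% and 15.4% of all genes, with a median of 0.40 against -0.10 over all genes. BiP moved most, with a difference of 1.95 ± 0.25 (SE, adjusted p = 1.2e-05), followed by SRP72 with 1.63 ± 0.19 (SE, adjusted p = 2.2e-06) and derlin-1 with 1.32 ± 0.28 (SE, adjusted p = 0.0011). SRP68 (1.31), PDIA6 (1.26), endoplasmin (1.18), PDIA4 (1.18), SRP19 (1.18) and derlin-2 (1.17) were also called. BiP had 182 and 238 CPM in day 2 BAPN embryos and 761 and 559 CPM with the blastula start at day 4, so its treated libraries were higher at day 4. SRP72 had 130.5 and 159 CPM in day 2 controls and 53.2 and 46.8 CPM in day 4 controls, and its treated libraries differed less between the days. Calreticulin (0.13 ± 0.21) and PDIA3 (-0.10 ± 0.21) did not pass the test of the difference (adjusted p = 0.7 and adjusted p = 0.8). The endoplasmin call was lost without the 1.2 mM library of the blastula start at day 4 (0.98).

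Set against the day 2 effect, the day 3 effect of the gastrula start was less negative for the PDI-like gene LOC119734460 (0.62 ± 0.17, adjusted p = 0.026) and higher for SRP72 (0.78 ± 0.19, adjusted p = 0.015). These 2 genes were the calls higher among the 39 and 0 were called lower, against 3.38% and 3.63% of all genes. Both calls were lost without the 1.2 mM library at day 2 (0.55 and 0.73), the second day 2 control (0.64 and 0.67) or the second day 3 control (0.66 and 0.82), LOC119734460 also without the 0.8 mM library at day 3 (0.62) and SRP72 without the 1.2 mM library at day 3 (0.76).

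At day 4 the blastula start had a higher level than the gastrula start for 7 of the 39 genes and a lower one for 0, against 6.31% and 7.84% of all genes. BiP differed most, by 1.33 ± 0.18 (SE, adjusted p = 8e-05), at 761 and 559 CPM with the blastula start and 270 and 255 CPM with the gastrula start. PDIA4 (1.04 ± 0.19), PDIA6 (1.0 ± 0.17) and endoplasmin (0.87 ± 0.23) followed, and derlin-2, TRAP beta and TRAP alpha were the others. The endoplasmin call was lost without the 1.2 mM library of the blastula start (0.67) or of the gastrula start (0.62). The derlin-2 call was lost without these same libraries (0.56 and 0.53), and those of TRAP alpha and TRAP beta in 8 and 7 of 23 alternatives. Within the blastula start group at day 4, the 1.2 mM library was the higher of the pair for BiP, endoplasmin, PDIA4 and PDIA6.

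In embryos recovered from BAPN, the libraries overlapped the day 4 controls for calreticulin, endoplasmin and PDIA6 and lay below both controls for BiP and PDIA4. Against day 4 controls 7 of 39 genes were higher and 1 lower, against 7.27% and 8.65% of all genes. SRP72 (0.87 ± 0.14, adjusted p = 0.00011), Sec61 beta (0.63 ± 0.13, adjusted p = 0.0013), calnexin (0.60 ± 0.12, adjusted p = 0.0011), SRP68 (0.58 ± 0.14), PDIA3 (0.50 ± 0.14), SRP14 (0.49 ± 0.15) and SRP54 (0.33 ± 0.11) were higher, and TRAP alpha (-0.51 ± 0.11, adjusted p = 0.0023) lower. Calreticulin (0.17 ± 0.15), endoplasmin (-0.16 ± 0.22), BiP (-0.49 ± 0.18) and PDIA6 (-0.12 ± 0.16) did not pass the test. Leaving out 1 library of the comparison ended the calls of SRP68 (0.57 without the first day 4 control, 0.47 without the 0.8 mM recovery library), TRAP alpha (-0.42 without the second control, -0.44 without the 0.8 mM recovery library) and PDIA3 (0.41 without the first control, 0.41 without the 1.2 mM recovery library). The calls of SRP14 and SRP54 were lost without any 1 of these 4 libraries, at 0.48 to 0.53 and at 0.33 to 0.36. Over all 23 alternatives, the SRP54 call was lost in 14 and the SRP14 call in 6. Genes of ribosomal RNA took 2.02% and 1.34% of counts in the recovery libraries and 0.694% and 3.20% in the day 4 controls, against 0.323% to 0.977% in all other libraries, and their part in these values was not tested.

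Against the younger day 3 controls, 0 of the 39 genes were called in recovered embryos by edgeR, 0 by DESeq2, and 3 had an unadjusted p under 0.05. Of all genes 0.651% were called. The median was 0.03, and calreticulin (-0.21 ± 0.15), BiP (-0.45 ± 0.18), endoplasmin (-0.30 ± 0.22), SRP72 (0.07 ± 0.14) and TRAP alpha (0.05 ± 0.11) all had adjusted p-values above the threshold. Embryos of these groups differ in age.

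Against embryos kept in BAPN from blastula to day 4, recovered embryos had 17 of 39 genes higher and 7 lower, against 25.3% and 23.3% of all genes. With scaling by total counts the split was 24 higher and 3 lower, and the median of all genes moved to 0.43, against 0.12 with TMM. Calreticulin (2.79 ± 0.16, adjusted p = 4e-12), PDIA3 (2.36 ± 0.16, adjusted p = 3.8e-11) and endoplasmin (2.08 ± 0.23, adjusted p = 2.3e-06) rose most, and derlin-2 (-1.20 ± 0.18, adjusted p = 6.3e-06), TRAP alpha (-0.99 ± 0.11, adjusted p = 1.7e-07) and SRP54 (-0.79 ± 0.11, adjusted p = 3.7e-06) fell most. BiP was not called, with 0.17 ± 0.18 (SE, adjusted p = 0.44). Set against the day 2 BAPN embryos, the state at which BAPN was removed, 15 were higher and 6 lower (23 and 2 by total counts), against 21.6% and 20.8% of all genes. Here endoplasmin (2.81 ± 0.24), PDIA6 (2.68 ± 0.17), PDIA4 (2.39 ± 0.20), calreticulin (2.33 ± 0.16) and BiP (1.83 ± 0.18) were higher, and TRAP alpha (-0.80 ± 0.11), SRP54 (-0.66 ± 0.11), SRP72 (-0.54 ± 0.14) and SRP68 (-0.41 ± 0.14) lower. The SRP68 call was lost without the 1.2 mM recovery library (-0.26) or the 0.8 mM day 2 library (-0.33), and that of SRP72 without the 1.2 mM recovery library (-0.45). Under total counts these became -0.12 and -0.26, also without a call.

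In untreated embryos, 14 of the 39 genes were lower at day 3 than at day 2 and 0 were higher, against 6.55% and 9.86% of all genes, led by SRP72 (-0.73 ± 0.14, adjusted p = 0.00068), derlin-1 (-0.65 ± 0.19, adjusted p = 0.022) and SRP54 (-0.57 ± 0.11, adjusted p = 0.0012). With scaling by total counts 7 were called, all lower. At day 4, against day 3, 7 were lower and 1 higher, against 5.79% and 7.95% of all genes. SRP9 (-0.87 ± 0.26), SRP72 (-0.80 ± 0.14), calnexin (-0.71 ± 0.12), SRP19 (-0.65 ± 0.16), SRP68 (-0.65 ± 0.14), PDIA3 (-0.53 ± 0.14) and Sec61 beta (-0.50 ± 0.13) were lower and TRAP alpha (0.56 ± 0.11) higher. Of these calls, 2 of 14 at day 3 and 3 of 8 at day 4 held in all alternatives, and without 1 library the number called ran from 3 to 14 and from 4 to 11. BiP and endoplasmin did not pass the test in either step.

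None of the ER genes passed the test of dose. With the group in the model, 0 of 38 tested genes differed between 1.2 mM and 0.8 mM by edgeR and 0 by DESeq2, and 2 had an unadjusted p under 0.05. Of 16558 genes tested 0.0121% were called. Log2 differences of the 38 genes ran from -0.39 to 0.31.

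Neighbouring steps of the pathway were read from lists of product names chosen with earlier results in view, in the mean effect, where 28.1% of all genes rose and 30.1% fell. Of 7 sensors and regulators of the unfolded protein response, 4 rose and 1 fell, with a median of 0.62 against -0.07 over all genes. IRE1 (LOC119738610), the sensor that splices XBP1 RNA, had 124 and 107 CPM with the blastula start at day 4, against 22 and 22.4 CPM in day 4 controls, with a mean change of 1.88 ± 0.10 (SE, adjusted p = 2.6e-13). HERPUD2 (LOC119739221), also in the degradation list, rose by 0.91 ± 0.12 (adjusted p = 9.2e-07), and MANF (LOC119737301), a secreted ER stress factor, fell with -1.47 ± 0.11 (adjusted p = 1e-10). Of 17 genes of ER-associated degradation, 7 rose and 2 fell, with a median of 0.16, against 28.1% and 30.1% of all genes. OS-9 (LOC119720322), a lectin that picks misfolded glycoproteins, had 0.74 ± 0.16, and the ATPase VCP (LOC119723131), which extracts them from the membrane, -0.40 ± 0.08. VCP had 519 and 663 CPM in day 2 BAPN embryos, against 1090 and 1130 CPM in day 2 controls. With the blastula start at day 4 it had 495 and 631 CPM, overlapping the 520 and 506 CPM of controls. There OS-9 had 23.2 and 19.7 CPM, overlapping 22 and 17.3 CPM. The list had 5 genes higher and 5 lower at day 2, against 21.8% and 19.7% of all genes. With the blastula start at day 4 it had 4 higher and 0 lower, against 24.4% and 27.3%.

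Of 21 J proteins and other lumenal folding factors, 6 rose and 12 fell, with a median of -0.50. Calumenin (LOC119737679), a calcium-binding protein of the secretory pathway, had -2.07 ± 0.10 (adjusted p = 3.8e-14) and the prolyl isomerase FKBP2 (LOC119745503) -1.53 ± 0.10, while FKBP9 (LOC119722650) had 2.05 ± 0.08 and SIL1 (LOC119739934), the nucleotide exchange factor of BiP, 1.72 ± 0.11 (adjusted p = 1.7e-11). Of 30 genes of N-glycan assembly and trimming, 12 rose and 11 fell, against 28.1% and 30.1% of all genes, with a median of 0.10 against -0.07 over all genes. The dolichyl-phosphate beta-glucosyltransferase-like gene (LOC119728714) had the largest rise, 3.31 ± 0.14 (adjusted p = 1.3e-14), at a mean of 70.2 CPM in treated and 7.16 CPM in control libraries of the 3 windows, and the ALG2-like mannosyltransferase (LOC119722503) had 2.68 ± 0.15. Both act in building the glycan that oligosaccharyltransferase transfers.

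All 4 tested genes of 5 for collagen folding enzymes fell in the mean effect, with a median of -0.98, against 30.1% of all genes. By window, all 4 were called lower at day 2, against 19.7% of all genes. At day 3, 1 of the 4 was called lower, against 15.1% of all genes. At day 4, 1 was called lower with the blastula start and 1 with the gastrula start, against 27.3% and 24.2%. The procollagen galactosyltransferase 1-like gene (LOC119720695) had -1.12 ± 0.17 (adjusted p = 6.2e-06) and a lysyl hydroxylase 1-like gene (LOC119732168) -1.02 ± 0.32 (adjusted p = 0.0092). The latter had low levels, with 2.64 and 5.94 CPM in day 3 BAPN embryos, overlapping the 7.12 and 4.09 CPM of day 3 controls. Of 25 genes of the COPII and COPI coats and their cargo receptors, which carry proteins between ER and Golgi, 14 fell and 6 rose, against 30.1% and 28.1% of all genes. The split varied by window, with 16 lower and 3 higher at day 2 (median -0.63) and 6 lower and 8 higher with the blastula start at day 4 (median 0.00). Of all genes, 19.7% were lower and 21.8% higher at day 2, and 27.3% and 24.4% with that start at day 4. The mean effect had SURF4 (LOC119720497; -1.12 ± 0.07) and the KDEL receptor 2 (LOC119737698; -0.86 ± 0.09) lower and the lectin VIP36 (LOC119735083; 1.45 ± 0.08) and Sec24A (LOC119731919; 0.76 ± 0.07) higher. Of 13 other membrane insertion genes, 2 rose and 0 fell in edgeR's test, a smaller share than the 28.1% and 30.1% of all genes. The 2 were GET3 (LOC119737923; 0.92 ± 0.08) and GET4 (LOC119734921; 0.87 ± 0.13), of the tail-anchor pathway.

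The summed levels of marker genes of differentiated tissues and of collagen chains were taken in the same libraries. For 6 muscle genes they were 626 to 1000 CPM in libraries kept in BAPN and 2260 to 2310 CPM after recovery, against 1720 to 3300 CPM in controls. For 57 cilia genes they were 3080 to 5560 CPM in libraries kept in BAPN and 6900 to 7140 CPM after recovery, against 5840 to 7970 CPM in controls. In the mean effect 5 of the 6 muscle genes fell and 0 rose, and 45 of 56 tested cilia genes fell and 2 rose. Of all genes, 30.1% fell and 28.1% rose. The summed levels of muscle and cilia genes were below all controls in every library kept in BAPN, as the ER genes were in their summed share.

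The summed levels of the gut and neuron lists differed from the controls in opposite directions at day 2 and day 4. The 33 gut genes had 116 to 139 CPM in day 2 BAPN embryos, against 56.8 to 59 CPM in day 2 controls. There 5 of 28 tested gut genes were higher and 2 lower, against 21.8% and 19.7% of all genes. The median log2 change of the 28 was 0. At day 4 the gut genes had 130 to 181 CPM with the blastula start, 91.3 to 91.6 CPM with the gastrula start and 77.7 to 91.2 CPM after recovery, against 343 to 426 CPM in controls. With the blastula start 13 of the 28 were lower and 3 higher, against 27.3% and 24.4% of all genes. Day 3 gut levels were 78.6 to 86.1 CPM in BAPN embryos, against 96.1 to 97.6 CPM in controls. The 7 neuron genes had 327 to 364 CPM in day 2 BAPN embryos, against 248 to 258 CPM in day 2 controls. There 2 of 6 tested neuron genes were higher and 0 lower in edgeR's test, against 21.8% and 19.7% of all genes. At day 3 the neuron genes had 247 to 270 CPM in BAPN embryos, against 359 to 368 CPM in controls. At day 4 they had 255 to 263 CPM with the blastula start, 243 to 280 CPM with the gastrula start and 310 to 365 CPM after recovery, against 569 to 595 CPM in controls. With the blastula start 3 of the 6 were lower and 1 higher, against 27.3% and 24.4% of all genes. In the mean effect 6 of 28 tested gut genes rose and 8 fell, near the 28.1% and 30.1% of all genes. Of the 6 tested neuron genes, 1 rose and 3 fell.

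The summed level of collagen chains differed most at day 4. The list holds 106 genes, of which 29 had no count. It had 1740 to 1780 CPM in day 2 BAPN embryos, against 1830 to 1860 CPM in day 2 controls, and 1510 to 1780 CPM in day 3 BAPN embryos, overlapping the 1640 to 1770 CPM of day 3 controls. At day 4 it had 886 to 1000 CPM with the blastula start, 861 to 926 CPM with the gastrula start and 1780 to 1970 CPM after recovery, against 1940 to 2220 CPM in controls. In the mean effect 11 of 28 tested fell and 4 rose, against 30.1% and 28.1% of all genes. With the blastula start at day 4, 7 of the 28 were lower and 2 higher, against 27.3% and 24.4% of all genes. With the gastrula start 5 were lower and 2 higher, against 24.2% and 21.9%. The part of these marker lists in the results on the ER genes was not tested.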

How the data were processed

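PolyA RNA of 16 whole-embryo libraries was sequenced in stranded paired-end mode, per the labels. Raw counts for each gene are what the authors deposited. The aligner, counter, strand setting and build were not given in the sources used here. All 27818 gene coordinates equal those of Pmin_3.0. The members and lists were chosen with earlier results of these data known, and 58 products were removed from the lists after their names were seen. Genes were kept by edgeR's expression filter on the 8 groups, set to a minimum count of 10 and a minimum total of 15 (17519 kept, 10299 removed). One edgeR 4.0.16 quasi-likelihood model with robust dispersions and TMM scaling was fitted to all libraries (8 residual degrees of freedom, 15 comparisons), with the SE as the log2 change divided by the square root of F. Alternatives were total counts, RLE factors, DESeq2 1.42.0, other filters, non-robust dispersion, only the groups compared, a replicate block and each library left out. R 4.3.3 and limma 3.58.1 were used. Scripts were tested on simulated data. Members were named by role. Per-library values are given for the member with the highest mean RPKM of each role, the 8 largest falls and 4 largest rises in the mean effect, and calls against the majority of a role. Other comparisons name called members among these and the 3 largest changes each way. From pathway lists up to 2 genes per direction are named. A planned search of promoters and proteins was not run, and sequences were not analysed here. Depth is 9945801 to 14383817 counts per library, and intervals reflect replicate spread only. Replicates differed beyond counting noise (chi-square per degree of freedom of 5.12 to 23.37), so none were merged.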

Additional observations from a re-analysis of the deposited data

Results flagged for a closer look

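The effect of BAPN differed between windows for 14 of the ER genes in the test of the day 4 effect minus the day 2 effect with the blastula start, in edgeR's quasi-likelihood model. These log2 differences were 1.95 for BiP (LOC119720212), 1.63 for SRP72 (LOC119735677), 1.32 for derlin-1 (LOC119738750), 1.31 for SRP68 (LOC119737826), 1.26 for PDIA6 (LOC119724894), 1.18 for endoplasmin (LOC119726490), 1.18 for PDIA4 (LOC119745254), 1.18 for SRP19 (LOC119720139), 1.17 for derlin-2 (LOC119726285), 1.05 for SRP9 (LOC119721179), 1.02 for SRP54 (LOC119742677), 0.69 for Sec61 beta (LOC119722856), 0.59 for Sec61 alpha (LOC119726588) and 0.50 for PDIA5 (LOC119729567). Of these, SRP9 lost its call in 13 of 24 alternatives, PDIA5 in 5, Sec61 alpha in 3 and endoplasmin in 1. The day 3 effect of the gastrula start differed from the day 2 effect for the PDI-like gene LOC119734460, by 0.62, and for SRP72, by 0.78, and each lost its call when 1 of 4 libraries was left out. Groups hold 2 libraries each, too few to look for a library that stands apart within a group.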

How the results depend on the processing

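No called gene changed direction in any alternative. In the mean effect 26 of 29 calls held in all alternatives, at day 2 16 of 21, at day 3 17 of 22, and at day 4 20 of 25 (blastula start) and 20 of 24 (gastrula start). With only the groups compared in the fit, 16 of the 39 genes were called in recovery against day 4 controls (8 in the full fit), 3 in recovery against day 3 controls (0), 4 between the starts at day 4 (7), 8 in the day 3 minus day 2 effect (2) and 18 in day 4 against day 3 controls (8). With no filter on low counts 2 were called in recovery against day 3 controls and 7 in the day 3 minus day 2 effect, where DESeq2 called 5. Scaling by total counts gave 7 in day 3 against day 2 controls (14) and 14 in day 4 against day 3 controls (8). The share ratio at day 3 was 0.498 with ribosomal RNA and the 10 largest genes left out. The cause of these shifts was not tested. Over all genes, counts differed in recovery against day 4 controls (2789, and 5302 with only the groups compared), recovery against day 3 controls (114, with 219 by DESeq2, 297 without filter and 639 with only the groups compared), the starts at day 4 (2479, and 950 with only the groups compared), day 4 against day 3 controls (2407, and 5872 with only the groups compared) and dose (2, with 0 by total counts, 53 by DESeq2, 128 without filter and 4 with non-robust dispersion).

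Without 1 library, the number called ran from 0 to 5 for the day 3 minus day 2 effect, from 3 to 14 for day 3 against day 2 controls, from 4 to 11 for day 4 against day 3 controls and from 4 to 10 for recovery against day 4 controls. The labels name each control as that of 1 treated library, without stating a shared culture or batch. At day 4 these ties cross the replicate numbers used here, with the first control tied to the 0.8 mM library. Libraries tied in this way did not deviate together (correlations of 0.01, -0.01 and 0.02), so they were not treated as pairs. A replicate block on these ties gave 29 calls in the mean effect and 7 in the day 3 minus day 2 effect. Groups of 2 libraries limit all calls, and genes of few counts, such as LOC119740884, cannot be judged at this depth.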
